A study of Homo sapiens with 66 samples.

Results

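The 9 genes described here are ATF4, ATF5, DDIT3, TRIB3, ASNS, CHAC1, PSAT1, PHGDH and SLC7A11, that is, the stress-response transcription factor ATF4 and genes known as its partners or targets. They were picked by symbol, and they are 9 of the 57992 gene identifiers analysed. RNA was sequenced from 11 established acute myeloid leukemia (AML) cell lines, F36P (F-36P), HL60 (HL-60), KASUMI1 (KASUMI-1), MOLM13 (MOLM-13), MONOMAC6 (MONO-MAC-6), MV411 (MV-4-11), NB4 (NB-4), NOMO1 (NOMO-1), OCIAML2 (OCI-AML2), OCIAML3 (OCI-AML3) and THP1 (THP-1). Each cell line was left untreated, in medium alone, or was given etoposide, a topoisomerase II poison that leaves breaks in DNA, for 24 hours at the IC50 of that cell line in a viability assay. There are 33 untreated and 33 etoposide-treated libraries, 3 per group, which the series' description calls biological replicates, and every library was made from pooled wells. The study discarded the etoposide-treated OCIAML2 libraries because their raw reads failed quality control, so the response of OCIAML2 is kept apart from those of the other 10 cell lines. Each cell line was treated at its own etoposide concentration, so differences in response between cell lines cannot be told apart from differences in dose. Media were shared by some cell lines and not by others. Where media differed, differences in untreated level or in response cannot be told apart from differences in medium.

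The integrated stress response begins when kinases that sense amino acid shortage, unfolded protein in the endoplasmic reticulum (ER), heme shortage or double-stranded RNA phosphorylate the translation factor eIF2. General translation then falls, while messages with short upstream reading frames, those of ATF4, ATF5 and DDIT3 among them, are translated better. The ATF4 protein binds DNA with C/EBP partners and raises genes for amino acid synthesis, amino acid uptake and glutathione turnover. ATF4 activity is thus set largely at translation, and the values below are RNA only.

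In GRCh38 the genes lie on 9 chromosomes, by their gencode release 44 bounds: PHGDH (ENSG00000092621) at chr1:119648411-119744218, SLC7A11 (ENSG00000151012) at chr4:138164097-138242349, ASNS (ENSG00000070669) at chr7:97851677-97872542, PSAT1 (ENSG00000135069) at chr9:78297125-78330093, DDIT3 (ENSG00000175197) at chr12:57516588-57521737, CHAC1 (ENSG00000128965) at chr15:40952962-40956512, ATF5 (ENSG00000169136) at chr19:49928702-49933935, TRIB3 (ENSG00000101255) at chr20:362835-397559 and ATF4 (ENSG00000128272) at chr22:39519695-39522683. ASNS, DDIT3 and SLC7A11 are on the minus strand and the others on the plus strand. Reads on genes ranged from 18261596 to 21304265 in untreated libraries and from 17997404 to 24101670 in etoposide-treated libraries. The leukemia markers PTPRC, CD33 and SPI1 had at least 33.6 CPM (the count scaled to the normalized library size) in each of the 11 untreated cell lines. In F36P the erythroid marker HBG2 (5600 CPM) was abundant as well, and the T cell marker CD3E and the B cell marker MS4A1 did not exceed 3.43 CPM in any untreated cell line. Other markers varied: myeloid MPO ranged from 1.01 CPM in F36P to 28000 CPM in KASUMI1, the progenitor markers CD34 and KIT reached 1 CPM in 2 and 6 cell lines, and epithelial EPCAM reached 84.5 CPM in KASUMI1 and KRT18 45.5 CPM in NOMO1. All 9 genes had reads in every library, and the lowest count was 2 reads, for CHAC1. ATF4, ASNS and PSAT1 have 4 pseudogenes each that bear their name, on which between 83 and 180 reads fell over all 66 libraries, against 542350 reads on ATF4, 167962 on ASNS and 230437 on PSAT1. Reads were counted by strand, which keeps apart the reads of genes that overlap on opposite strands. For DDIT3, ATF5 and SLC7A11 this was not checked gene by gene.

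The DNA element through which ATF4 and its C/EBP partners act is known as the C/EBP-ATF response element, and its core, TGATGNAA, was searched on both strands of the RefSeq promoter windows of GRCh38.p14, which span 250 bases before to 50 bases after a gene's start. A window was found for 8 of the 9 genes (all but SLC7A11), and 2 of these 8, ASNS and CHAC1, hold the core. Of all 27305 genes with a window, 4.46% hold it. The sequences around both matches are shown because no other of the 8 genes holds the core. ASNS and CHAC1 are, with DDIT3, the genes called in the most cell lines after etoposide, and the windows of DDIT3 lack the core. A link between the core and the response was not tested. Capitals mark the core, and the strand shown is that of the gene.
ASNS: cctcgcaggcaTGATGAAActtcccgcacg
CHAC1: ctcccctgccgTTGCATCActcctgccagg
The ASNS sequence is chr7:97872458-97872487 on the minus strand, and its core lies 68 to 61 bases before the RefSeq start, in forward orientation. It is the sequence known as the nutrient-sensing response element of ASNS. The CHAC1 sequence is chr15:40953251-40953280 on the plus strand, with the core in reverse orientation 209 to 202 bases before the start. In gencode release 44 the ASNS core lies in the untranslated first exon of 2 of 17 transcripts and the CHAC1 core in that of 1 of 3, in neither case the canonical transcript. For the other 6 genes with a window, these letters are not in it, which says nothing about sites elsewhere.

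Before treatment ATF4 was by far the most abundant of the 9 per length of transcript, with a median over cell lines of 270.0 CPM per kilobase of canonical transcript. PHGDH followed with 98.2 and PSAT1 with 67.9, while CHAC1 (3.25) and SLC7A11 (1.98) were lowest on this scale. Every one of the 9 genes differed between the 11 untreated cell lines (quasi-likelihood F test of edgeR over 33 libraries, with adjusted p-values from 1.12e-27 for ATF5 to 9.81e-14 for DDIT3). So did 99.4% of the 18130 genes tested, so a difference between cell lines is the rule and not a property of these genes.

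The transcription factors had different orders of cell lines. ATF4 was highest in HL60, with 698, 855 and 793 CPM in its untreated libraries, and lowest in MONOMAC6, with 278, 294 and 303 CPM. These groups do not overlap, and the ratio of the means is 2.68, the narrowest of the 9 genes. The 8 neighbouring steps in the order below F36P, from MOLM13 to MONOMAC6, did not pass the test. ATF5, a close relative of ATF4, had 434, 718 and 521 CPM in untreated HL60 against 20.2, 19.3 and 13.6 CPM in F36P, a ratio of 31.5. HL60 stood 2.32 log2 units above MV411, the next cell line (adjusted p = 3.08e-16), and 7 of the 10 neighbouring steps did not pass. DDIT3, which encodes the pro-apoptotic factor CHOP, ranged from 38.7 CPM in MONOMAC6 to 10.1 CPM in OCIAML3, and 8 of its 10 neighbouring steps did not pass.

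Of the genes of serine and asparagine synthesis, each had HL60 and MV411 among its 3 highest cell lines and THP1 and NB4 among its 3 lowest. ASNS, asparagine synthetase, had 272, 280 and 201 CPM in untreated F36P and 21.0, 19.6 and 22.0 CPM in THP1, a ratio of 12.0. THP1 lay 1.05 log2 units below NB4, its neighbour (adjusted p = 4.33e-07). PSAT1, the aminotransferase of serine synthesis, was highest in MV411 (381, 385 and 371 CPM) and lowest in THP1 (61.8, 61.0 and 61.9 CPM), and the lowest step, from NOMO1 to THP1, did not pass (adjusted p = 0.296). PHGDH, the first enzyme of the same pathway, ranged from 360 CPM in HL60 to 90.8 CPM in NB4. Its upper 3 cell lines, HL60, F36P and MV411, were not separated by the test from one to the next.

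CHAC1, an enzyme that degrades glutathione, had the widest range before treatment. It reached 15.6, 28.8 and 18.2 CPM in HL60 and only 0.298, 0.106 and 0.277 CPM in NB4, a ratio of 91.9. OCIAML2, with a mean of 0.462 CPM, was next to NB4, and these cell lines did not differ in the test (adjusted p = 0.201). SLC7A11, the cystine and glutamate exchanger that supplies cysteine for glutathione, fell into an upper group of MONOMAC6, F36P, THP1 and HL60, with 70.5 to 51.7 CPM, between whose neighbours no step passed. The next cell line, NOMO1, lay 1.22 log2 units lower (adjusted p = 1.01e-07), and OCIAML3 was lowest with 4.22, 3.65 and 4.14 CPM. TRIB3, a pseudokinase that restrains ATF4 and CHOP, ranged from 226 CPM in NB4 to 30.01 CPM in KASUMI1.

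**Figure D1:**
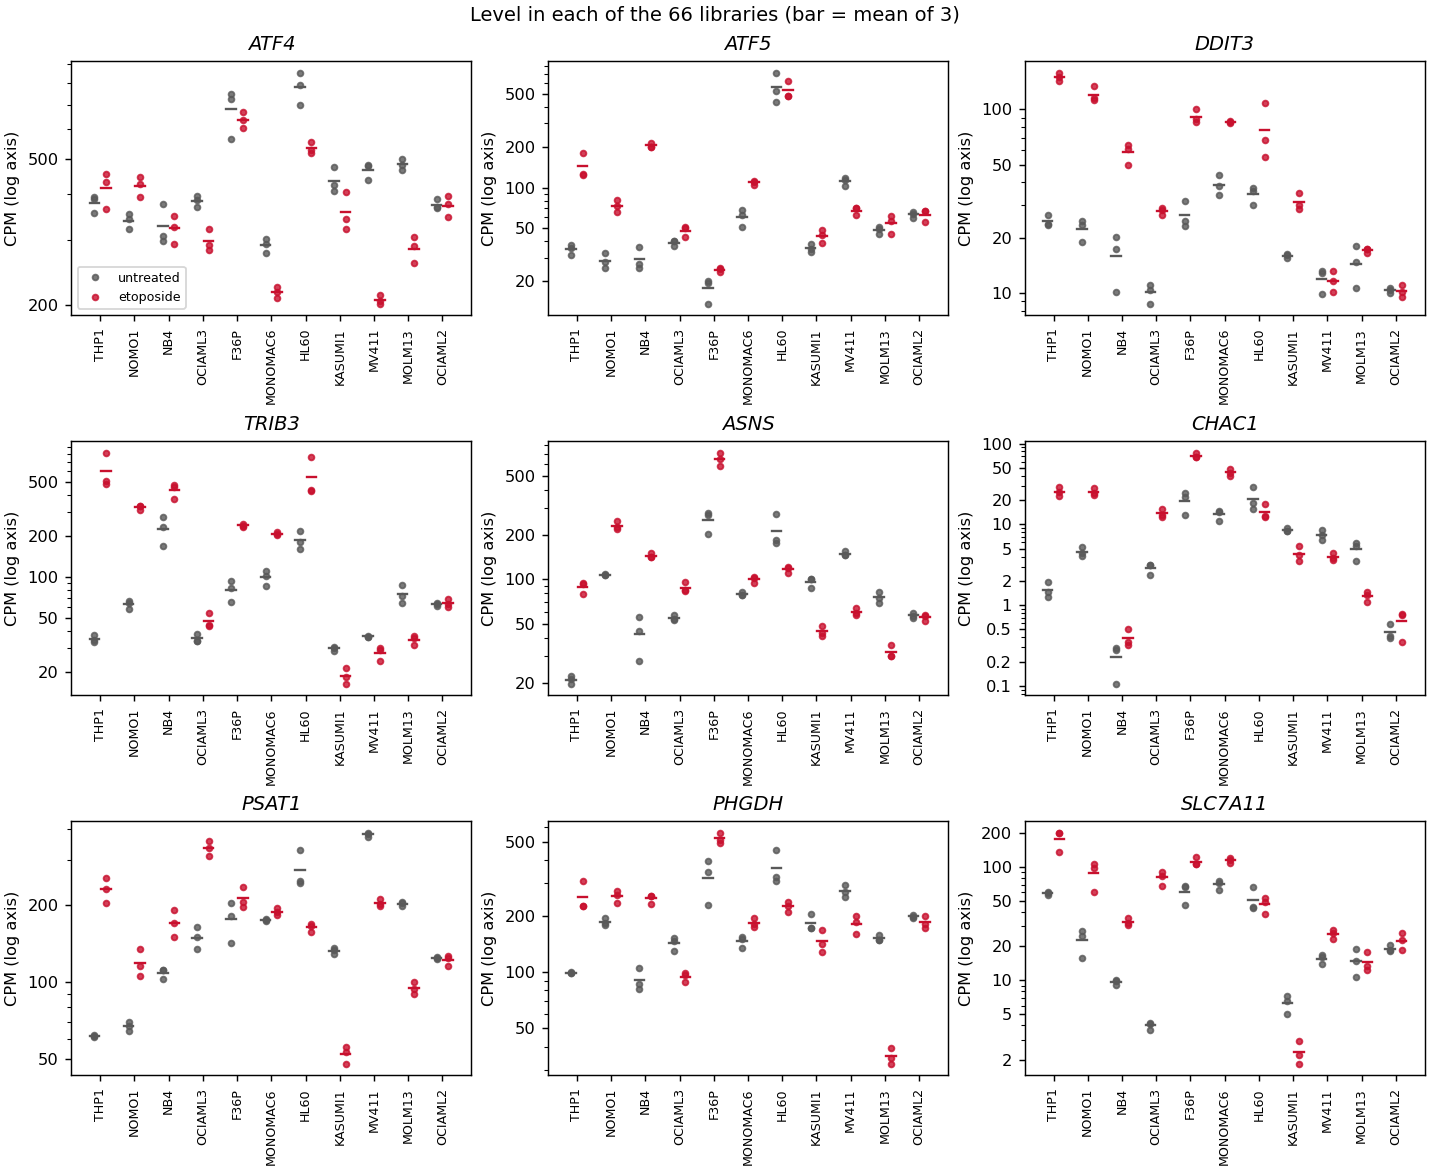
Level of each of the 9 genes in every library, in CPM on a log axis, for untreated (grey) and etoposide-treated (red) libraries of the 11 cell lines, where a bar is the mean of 3 libraries. DDIT3 is higher after etoposide in most cell lines, whereas ASNS and CHAC1 are higher in THP1 and lower in MOLM13, and OCIAML2 on the right shows little change.

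Etoposide moved the 9 genes, except DDIT3, in opposite directions in different cell lines. In what follows a gene "rose" or "fell" when its adjusted p from edgeR's quasi-likelihood test was below 0.05, and it was "called" when it also changed more than 2-fold. Over the 10 cell lines there are 90 pairs of gene and cell line, of which 89 were tested, since CHAC1 in NB4 had too few reads. Of the 89, 32 were called higher and 11 lower, against 11.1% and 3.96% of the pairs of all genes tested. By the adjusted p alone 49 rose and 28 fell, against 27.7% and 24.4% of all pairs. Markers of cell type moved as well. Of 6 leukemia markers, 5 of 49 pairs were called higher and 7 lower, with MPO called lower in 5 cell lines (-2.30 in NOMO1), and of 6 lymphoid, epithelial and stromal markers 13 of 26 pairs were called higher and 1 lower, with the collagen gene COL1A1 called higher in 7 of the 8 cell lines where it was tested and KRT18 (3.66) and EPCAM (3.32) higher in F36P. Their part in the response of the 9 genes was not tested.

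By calls the rise was broadest in THP1, where 8 of the 9 genes were called higher and none lower, with 6.38% of all genes called higher. The median log2 fold change of the 9 genes there was 2.0, against -0.03 over all genes tested. In NOMO1 6 were called higher (8.34% of all genes) with a median of 1.38, and all 9 rose (28.8% of all genes). In bulk RNA of a culture, a change in some of the cells and a smaller change in all of them cannot be told apart. In NB4 5 of the 8 tested genes were called higher (13.2% of all genes), with a median of 1.55. In OCIAML3 4 were called higher (7.18% of all genes), with a median of 0.69, although ATF4 and PHGDH fell. F36P also had 4 genes called higher, but there 24.3% of all genes were, so that the count lies closer to the background than in the cell lines above. In MONOMAC6 3 were called higher (8.53% of all genes). None of the 9 was called lower in these 6 cell lines, where the shares of all genes called lower were 3.46% in THP1, 4.43% in NOMO1, 4.82% in NB4, 1.36% in OCIAML3, 6.67% in F36P and 4.47% in MONOMAC6.

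The opposite was seen in 3 cell lines. In MOLM13 5 of the 9 genes, TRIB3, ASNS, CHAC1, PSAT1 and PHGDH, were called lower and none higher, while 3.37% of all genes were called lower and 8.59% higher. The median log2 fold change of the 9 genes there was -1.16. In KASUMI1 ASNS, CHAC1, PSAT1 and SLC7A11 were called lower (6.52% of all genes) and none higher (14.6%), with a median of -0.72. DDIT3 nevertheless rose there, by less than 2-fold (0.91). It was called higher with library size alone (1.09) or a mean of at least 5 CPM (1.01). In MV411 ATF4 and ASNS were called lower (2.63% of all genes), none was called higher (12.5%) and 7 of the 9 genes fell (30.4%), with a median of -0.77. HL60 was mixed, with DDIT3 and TRIB3 called higher (5.34% of all genes), ATF4, ASNS, CHAC1, PSAT1 and PHGDH falling by less than 2-fold (15% of all genes fell and 1.24% were called lower), and a median of -0.58.

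**Figure D2:**
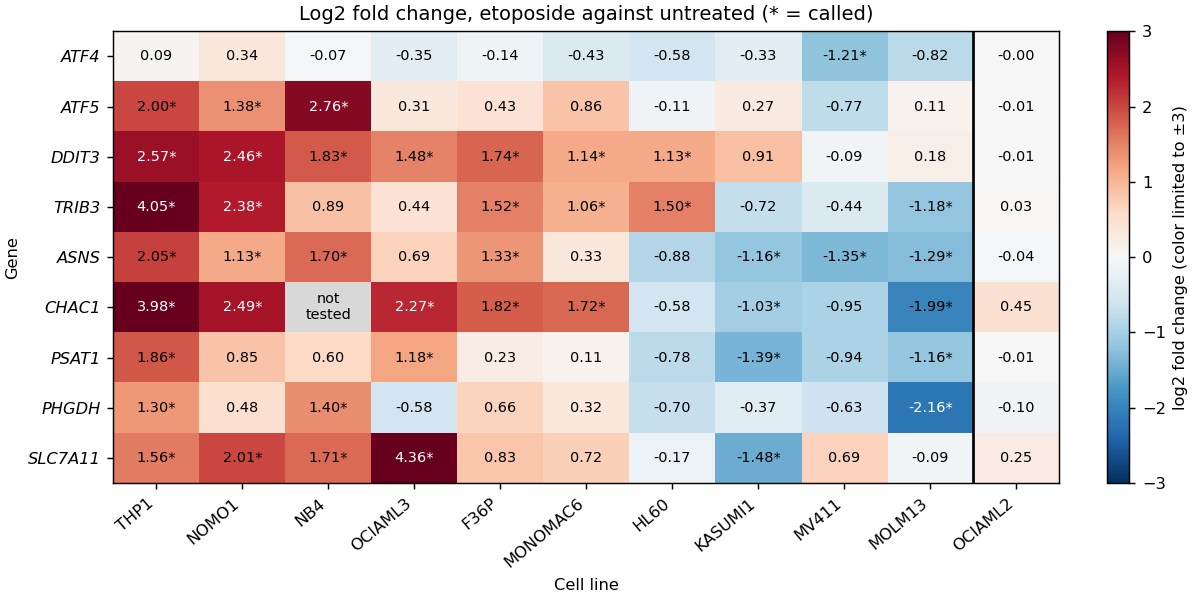
Log2 fold change of each of the 9 genes (rows) in each cell line (columns), ordered by the mean over the genes, with OCIAML2 apart on the right. Asterisks mark calls, red is higher and blue lower after etoposide, and values run from 4.36 for SLC7A11 in OCIAML3 to -2.16 for PHGDH in MOLM13.

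ATF4 RNA itself changed least and mostly downward. It fell in 6 of the 10 cell lines and rose in 1. In MV411 it went from 437, 477 and 481 CPM in untreated libraries to 202, 213 and 206 CPM with etoposide. All 3 treated libraries lie below all 3 untreated ones, and the log2 fold change was -1.21 ± 0.0543 (SE, adjusted p = 6.03e-14), its only call. ATF4 also fell in MOLM13 (-0.82), HL60 (-0.58), MONOMAC6 (-0.43), OCIAML3 (-0.35) and KASUMI1 (-0.33). The fall in KASUMI1 is the least certain, since it no longer passed with library size alone (-0.16, adjusted p = 0.152), with a mean of at least 5 CPM (adjusted p = 0.0638) or without untreated replicate 3, etoposide replicate 1 or etoposide replicate 3 (adjusted p-values of edgeR's test from 0.0526 to 0.0636). NOMO1 was the cell line where it rose, from 323, 343 and 353 CPM to 427, 445 and 394 CPM, with no overlap and a log2 fold change of 0.34 ± 0.0801. In THP1, where 8 other genes were called higher, ATF4 had 357, 394 and 389 CPM before and 364, 453 and 431 CPM after, and the groups overlap (log2 fold change 0.09, adjusted p = 0.603). In F36P and NB4 the values of -0.14 and -0.07 did not pass, and both turn positive (0.11 and 0.14) when libraries are scaled by library size alone, whereas in F36P without untreated replicate 3 the value is -0.34 and passes as a fall (edgeR, adjusted p = 0.0231).

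ATF5 was called higher in 3 cell lines and lower in none. In NB4 it rose from 25.3, 36.2 and 26.8 CPM to a mean of 205.7 ± 9.31 CPM (SD, n = 3), a log2 fold change of 2.76 ± 0.121 (adjusted p = 4.23e-10). In THP1 it rose from 31.6, 35.7 and 37.5 CPM to 123, 182 and 126 CPM, and in NOMO1 its log2 fold change was 1.38 ± 0.115. The groups do not overlap in any of these cell lines. In HL60, where ATF5 was already at its highest, it had 477, 484 and 626 CPM with etoposide, within the untreated range, and the log2 fold change of -0.11 did not pass. MV411 was the one cell line in which ATF5 fell (-0.77).

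DDIT3 was the most regular of the 9. It rose in 8 of the 10 cell lines, was called higher in 7 and fell in none. In THP1 it went from 26.6, 23.6 and 23.4 CPM to 143, 149 and 158 CPM, a log2 fold change of 2.57 ± 0.128 (adjusted p = 1.49e-10). In NOMO1 it went from 23.3, 18.9 and 24.5 CPM to 112, 133 and 115 CPM (2.46 ± 0.118). Treated and untreated libraries are far apart in both. In MOLM13 (0.18) and MV411 (-0.09) the groups overlap and the change did not pass. In HL60 the call rests on 1 library, since the treated libraries had 68.2, 55.1 and 108 CPM and without etoposide replicate 3 the log2 fold change of 1.13 becomes 0.82, still with a low adjusted p (0.000361).

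TRIB3, itself a gene that CHOP and ATF4 are known to raise, had among the largest rises. In THP1 it went from 33.6, 34.8 and 37.5 CPM to 483, 813 and 506 CPM, 16.6-fold higher (log2 fold change 4.05 ± 0.189, adjusted p = 6.39e-11). In HL60 it went from 159, 217 and 180 CPM to 426, 434 and 750 CPM, a log2 fold change of 1.5 ± 0.184, in a cell line where 5 of the other genes fell. In MOLM13 it was called lower, from 64.7, 73.1 and 87.7 CPM to 31.5, 36.9 and 35.5 CPM (-1.18 ± 0.113). The groups do not overlap in any of these 3 cell lines. Near the 2-fold limit, TRIB3 in MONOMAC6 has a log2 fold change of 1.06, and of 0.96 without untreated replicate 1, while in NB4 0.89 becomes 1.05 without untreated replicate 3 and 1.0 without etoposide replicate 1.

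CHAC1 had wide changes in both directions. In THP1 it went from 1.26, 1.96 and 1.46 CPM to 22.3, 29.1 and 25.1 CPM, 15.8-fold higher (log2 fold change 3.98 ± 0.199, adjusted p = 1.49e-10). It was also called higher in NOMO1 (2.49), OCIAML3 (2.27), F36P (1.82) and MONOMAC6 (1.72). In MOLM13 it went the other way, from 3.51, 5.42 and 5.91 CPM to 1.09, 1.45 and 1.35 CPM, 3.96-fold lower and without overlap. In KASUMI1 its log2 fold change of -1.03 sits on the 2-fold limit and loses the call without untreated replicate 1 (-0.99), without etoposide replicate 1 (-0.89) or without etoposide replicate 2 (-1.0). In MV411 it is -0.95, and it gains the call without untreated replicate 1 (-1.05) or without etoposide replicate 2 (-1.04). NB4, where CHAC1 was not tested, had at most 0.51 CPM in any treated library.

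ASNS was called in 7 of the 10 cell lines, higher in 4 and lower in 3. In F36P, the cell line with the highest untreated level, it rose further, from 272, 280 and 201 CPM to 714, 651 and 585 CPM (log2 fold change 1.33 ± 0.136). In THP1, the cell line with the lowest, it rose from 21.0, 19.6 and 22.0 CPM to 94.1, 79.8 and 92.7 CPM (2.05 ± 0.13). In MV411 it fell from 145, 154 and 146 CPM to 63.5, 59.4 and 56.9 CPM (-1.35 ± 0.0605, adjusted p = 6.03e-14), and MOLM13 (-1.29) and KASUMI1 (-1.16) had like values. Treated and untreated libraries do not overlap for ASNS in any of the 10 cell lines, nor do they for TRIB3 or PHGDH. How common this is over all genes was not computed. Scaled by library size alone, the ASNS value in KASUMI1 is -0.98 and no longer past 2-fold.

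The enzymes of serine synthesis, PSAT1 and PHGDH, catalyse consecutive steps of one pathway but differed in OCIAML3. There PSAT1 was called higher, from 164, 150 and 135 CPM to 358, 335 and 313 CPM (log2 fold change 1.18 ± 0.0859), while PHGDH fell from 147, 152 and 130 CPM to 89.1, 96.8 and 98.5 CPM (-0.58 ± 0.0803). The groups overlap for neither gene. In THP1 both were called higher, PSAT1 by 1.86 and PHGDH by 1.3 on the log2 scale. In MOLM13 both were called lower, and PHGDH dropped most, from 149, 149 and 159 CPM to 32.3, 39.5 and 34.8 CPM, 4.48-fold lower. In KASUMI1 PSAT1 was called lower (-1.39), while PHGDH fell by less than 2-fold (-0.37). In NB4 PHGDH was called higher (1.40), with 0.60 for PSAT1.

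SLC7A11 departed most from the other genes. In OCIAML3, the cell line with its lowest untreated level, it went from 4.22, 3.65 and 4.14 CPM to 91.5, 83.9 and 68.8 CPM, 20.5-fold higher (log2 fold change 4.36 ± 0.136, adjusted p = 4.23e-07), the largest value of the 89. It was also called higher in NOMO1 (2.01), NB4 (1.71) and THP1 (1.56). In MV411, where 7 of the genes fell, it rose from 16.8, 16.0 and 13.9 CPM to 27.7, 23.4 and 26.4 CPM (0.69 ± 0.0939). KASUMI1 was the cell line where it was called lower, from 7.23, 6.58 and 5.02 CPM to 2.91, 1.83 and 2.20 CPM. In MOLM13 and HL60 the groups overlap, and the values of -0.09 and -0.17 did not pass.

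Whether the response differs between the 10 cell lines was tested with 1 fit of their 60 libraries. CHAC1 in NB4, at means of 0.227 CPM untreated and 0.395 CPM with etoposide, was kept in this fit. Its fold change there therefore enters the interaction, the means and the correlations of responses below. All 9 genes passed (treatment by cell line interaction with 9 degrees of freedom), with adjusted p-values from 2.90e-27 for PSAT1 to 1.31e-13 for ATF4, and 74.5% of all 19974 genes passed too. TRIB3, ASNS, CHAC1, PSAT1, PHGDH and SLC7A11 were each called higher in at least 1 cell line and lower in at least 1 other, 6 of the 9 genes against 3.71% of the genes tested in any of the 10 cell lines. Whether the cell lines share a mean response was tested by an exact two-sided sign-flip permutation test over 10 cell lines (all sign flips, smallest possible p = 0.00195), in which 19.9% of all genes passed in the higher direction and 12.9% in the lower. DDIT3 was the only 1 of the 9 to pass, with a mean log2 fold change of 1.36 ± 0.86 (SD over 10 cell lines), higher in 9 of 10 (exact permutation p = 0.00391, adjusted p = 0.0197). ATF4 had a mean of -0.32 ± 0.44, lower in 8 of 10 cell lines, with an adjusted p of 0.0999, and SLC7A11 had 1.04 ± 1.55 with an adjusted p of 0.11. The means of ASNS (0.28), PSAT1 (0.08) and PHGDH (-0.00) lay near 0, with spreads of 1.31, 1.08 and 1.07 over the cell lines.

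The responses of the 9 genes went along with each other over the cell lines. Pearson's r between their log2 fold changes over 10 cell lines was positive in all 36 pairs, with a median of 0.77 and a range from 0.27 to 0.95, whereas over all pairs of genes in the same fit the median was 0.03 and 52.4% were positive. These correlations are descriptions, since all genes of a cell line share the same libraries, scaling and dose. DDIT3 and ATF4 had the highest r, 0.95, although DDIT3 mostly rose and ATF4 mostly fell: the cell lines with the smallest fall or a rise of ATF4, such as NOMO1 and THP1, were those with the largest rise of DDIT3. CHAC1 and PSAT1 (0.94) and ASNS and PSAT1 (0.91) followed. SLC7A11 was the loosest member, with r of 0.27 to PHGDH and 0.30 to ATF4 and ATF5, but 0.78 to PSAT1. Without MOLM13 and MV411, the 2 cell lines whose mean response lies farthest from the median, the median r was 0.67 (0.12 to 0.93) and all 36 pairs stayed positive. Both lie at the low end, with means of -0.87 and -0.59. THP1, with the highest mean (2.2), stayed in, and the correlations without it were not computed.

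Untreated levels were tied less closely. Over the 11 cell lines the median r was 0.33 (-0.06 to 0.91), with 33 of 36 pairs positive, against a median of -0.00 over all pairs of genes. The highest values were those of ASNS and PHGDH (0.91), DDIT3 and SLC7A11 (0.82), ASNS and CHAC1 (0.79) and ATF4 and PHGDH (0.78). TRIB3 had r between -0.01 and 0.42 to the other genes. DDIT3 and SLC7A11, close in untreated levels, had an r of only 0.44 in their responses, and CHAC1 and TRIB3 showed the reverse, with -0.01 untreated and 0.85 in the response.

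**Figure D3:**
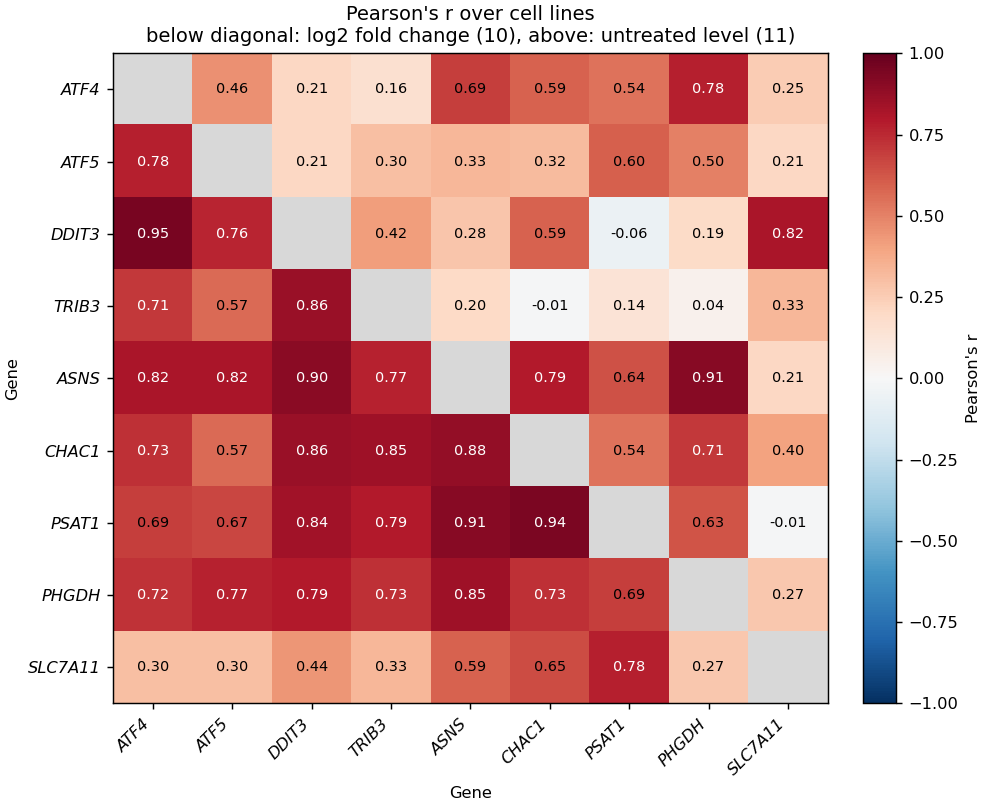
Pearson's r between each pair of the 9 genes, of the log2 fold changes over 10 cell lines below the diagonal and of the untreated log2 levels over 11 cell lines above it. The part below the diagonal is uniformly positive (0.27 to 0.95), whereas the part above it runs from -0.06 to 0.91.

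The 9 genes also varied together between libraries of the same group. After the group mean was subtracted, the deviations of the genes over 66 libraries, all those of OCIAML2 included, had a median r of 0.30, with 30 of 36 pairs positive, against 0.00 over all pairs of genes. ATF4 and PHGDH (0.79), ATF5 and PHGDH (0.76) and ATF4 and ATF5 (0.74) had the highest values, and SLC7A11 had the most negative ones, to PHGDH (-0.33) and ATF4 (-0.32). In untreated HL60 all 9 genes lay above the group mean in replicate 2, by 0.31 log2 units on average, and all 9 below it in replicate 1, by -0.23. Untreated F36P replicate 3 was lower (-0.27), and untreated MOLM13 replicates 1 and 3 lay apart by -0.19 and 0.17. Among the etoposide-treated groups HL60 spread most, with replicate 3 lying 0.21 above the mean and replicate 2 -0.13 from it. What sets these libraries apart was not tested.

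**Figure D4:**
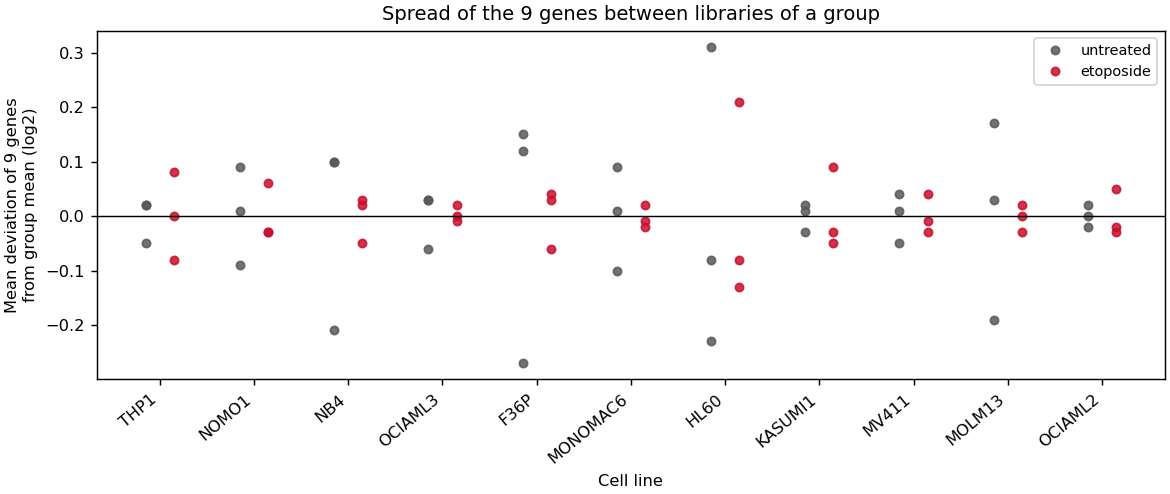
Mean deviation of the 9 genes from the mean of their group in each library, in log2 units, for untreated (grey) and etoposide-treated (red) libraries. Untreated HL60 (0.31 to -0.23), F36P and MOLM13 spread most, and most other groups stay within 0.1.

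Other genes of the same pathways were read from 7 lists with 101 genes in all, whose counts stand beside the 11.1% called higher and 3.96% called lower over all pairs of gene and cell line tested. Among 15 other effectors of the stress response, 48 of 130 tested pairs of gene and cell line were called higher and 7 lower in the 10 cell lines. ATF3, a factor induced by many stresses, rose in all 10 cell lines and was called in 8, from 0.49 in MOLM13 to 4.5 in NOMO1. GDF15, a secreted stress cytokine, was called higher in each of the 7 cell lines where it was tested, from 3.67 in F36P to 7.42 in OCIAML3. SESN2, a sestrin that responds to both ATF4 and p53, was called higher in 6. ADM2, which encodes a secreted peptide, was called both ways, from -2.06 in MOLM13 to 3.09 in THP1.

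Calls were few among genes that control eIF2. Of 15 genes for the kinases, the subunits of eIF2 and eIF2B and the phosphatase regulators, 7 of 150 pairs were called higher and 1 lower, while by the adjusted p alone 54 fell and 24 rose. PPP1R15A, also known as GADD34, which directs the dephosphorylation of eIF2, made up 6 of the 7, and it rose in all 10 cell lines (0.36 in MV411 to 2.25 in NOMO1). EIF2AK2, the double-stranded RNA kinase PKR, made up the other, with 1.61 in MV411. EIF2B5 fell in all 10 cell lines, without a call (-0.95 to -0.29).

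Amino acid transporters and biosynthetic enzymes were called in both directions. Among 10 transporters, 9 of 89 pairs were called higher, near the share over all genes, and 10 lower. SLC6A9, a glycine transporter, was called higher in 3 cell lines and lower in 3, from -2.46 in MOLM13 to 4.99 in THP1. SLC7A5, a transporter of large neutral amino acids, was called lower in KASUMI1 (-2.03), MOLM13 (-1.36) and MV411 (-1.34) and higher in THP1 (1.38), and SLC7A1 for cationic amino acids fell in 8 of the 10 cell lines. SLC38A1, a glutamine transporter, was highest in F36P (2.24). Among 13 further enzymes of serine, folate and amino acid synthesis, 11 of 124 pairs were called higher and 19 lower. CTH, which makes cysteine, ranged from -1.43 in MV411 to 2.82 in THP1, and mitochondrial ALDH1L2 reached 8.58 in F36P. ALDH18A1, of proline synthesis, fell in all 10 cell lines and BCAT1, of branched-chain amino acid turnover, in 7.

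The 20 cytosolic aminoacyl-tRNA synthetases, many of them known ATF4 targets, fell more often than they rose, with 103 of 200 pairs past the adjusted p lower and 43 higher (24.4% and 27.7% of all pairs), of which 14 and 7 were called. WARS1 (called higher in 4) and CARS1 (in 3) were among the exceptions, and FARSA and VARS1 fell in 8 cell lines each. The TGATGNAA core is held by 4.46% of all genes with a window. It was found in the windows of 7 of 16 synthetases, 5 of 9 transporters, 4 of 12 other effectors and 3 of 8 further enzymes. Among genes of eIF2 control 1 of 13 held it, as did 1 of 18 ER genes and 0 of 8 NRF2 targets. Of 18 ER chaperones and genes of the other branches of the unfolded protein response, 7 of 180 pairs were called higher and 15 lower, and 14 of these 15 calls were in KASUMI1 and NB4. CALR, HYOU1 and SDF2L1 were called lower in 3, 2 and 2 cell lines, and ERN1, which encodes the sensor IRE1, rose in 9. NRF2 targets, which share SLC7A11 with this response, had 17 of 88 pairs called higher and none lower. HMOX1, heme oxygenase, was called higher in 8 of 9 cell lines (0.88 in MONOMAC6 to 4.96 in KASUMI1), NQO1 and ME1 in 2 each and OSGIN1 in 4. GCLC, GCLM and TXNRD1, tested in 10 cell lines each, were never called, with mean log2 fold changes of -0.19, -0.04 and -0.04. By the adjusted p alone 45 of the 88 pairs rose and 7 fell.

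Among 2430 other genes that averaged 1 CPM or more and were called in at least 3 cell lines, those whose log2 fold change was most like the mean of the 9 genes over 10 cell lines were SLC6A9 (r = 0.942), CARS1 (0.938), CREB5 (0.923), ADM2 (0.920) and SLC7A5 (0.904). SLC6A9, CARS1, ADM2 and SLC7A5 are in the lists above. CREB5, a transcription factor of the CREB family, was called higher in 5 cell lines.

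In OCIAML2, whose treated libraries the study discarded, none of the 9 genes passed edgeR's quasi-likelihood test in either direction, and 0.0221% of all genes did, each higher and none of them called. ATF4 had 370.0, 368 and 388 CPM untreated and 347, 377 and 395 CPM in the libraries labelled etoposide. Fold changes of the 9 genes lay between -0.10 and 0.45 on the log2 scale, with 1 of 9, SLC7A11, at an unadjusted p under 0.05 in edgeR's test (0.043), and DESeq2 and the exact test passed none. All groups of the 9 genes overlap there, so untreated and etoposide-labelled libraries of OCIAML2 could not be distinguished by them.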

How the data were processed

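RNA of 11 AML cell lines, untreated or etoposide-treated, was measured in 66 libraries, and groups were taken from the labels. According to the methods, the authors mapped single-end reads of a stranded mRNA kit with STAR 2.5.3a to GRCh38.p7 with gencode release 25 after quality control with FastQC 0.11.5, and tested expression with edgeR 3.20.1. The deposited values are raw whole-number counts of reads on genes, in 1 file of 1 column for each library. Which of STAR's count columns was deposited is not given in the sources used here. It counts reads by strand, since reads were found for 353 of 446 genes that an opposite-strand exon covers entirely. No unmapped or ambiguous reads are among the rows, and 45 pseudoautosomal copies of chromosome Y with 0 reads were left out. Names were taken by identifier from gencode release 44 for 56948 of 57992 identifiers.

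From the counts, the treated and untreated libraries of each cell line were compared by edgeR 4.0.16 in R 4.3.3 (filterByExpr at its minimum count, 10, and minimum total, 15, then TMM, the quasi-likelihood test and Benjamini-Hochberg adjustment over all genes tested). A call needed an adjusted p below 0.05 and more than a 2-fold change, and the SE was computed from the F statistic. The response over cell lines and its interaction came from 1 fit of 60 libraries without OCIAML2, and untreated levels from 1 fit of 33 libraries with 55 pairwise contrasts. Printed CPM were normalized by TMM over all 66 libraries, so a fold change can differ slightly from their ratio. Correlations used the fitted log2 fold changes for responses and log2(CPM + 0.5) for levels and library deviations, and carry no p.

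The members and lists were chosen with earlier results of these data known. All 9 members are named, with up to 4 genes of each list (those called in the most cell lines, ties by the size of the mean) and the 5 genes most like the mean of the members. Replicate numbers are shared by the groups. Same-numbered libraries deviated together, with r above 0.1 in all 3 pairs, only in NB4 (lowest r 0.152), where the numbers were taken to pair the libraries. The main fits, that of NB4 included, still used no pairing, and the replicate number entered only as an alternative.

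The tests were run on simulated counts with the same dispersion for all genes. Planted changes were at least 3-fold, in genes of at least 5 CPM, and a planted mean response was equal in every cell line. Recovery of smaller changes, or of mean responses that vary over cell lines, was not tested. Of 200 genes changed in MV411 counts with 13767 genes, the quasi-likelihood test, the exact test and DESeq2 1.42.0 recovered 200 each, with 3, 3 and 0 false calls. In 3000 genes, 100 of 100 planted interactions were recovered with 11 false calls, 600 of 600 mean responses with 28, and 100 of 100 untreated differences with 7. Alternatives were RLE normalization, library size alone, no filter or a mean of at least 5 CPM, DESeq2, edgeR's exact test, the replicate number as a block, the fit of 60 libraries, each replicate left out, Spearman's rho, and omission of F36P. Omission of the 2 cell lines farthest from the median was added after seeing the data. Python 3.11.15 with numpy 2.4.6, pandas 2.3.3, scipy 1.17.1 and matplotlib 3.10.9 was used for summaries and figures. Viability, networks and inhibitor experiments were not analysed here.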

Additional observations from a re-analysis of the deposited data

Results flagged for a closer look

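Each of the 9 genes responded to etoposide differently between the 10 cell lines, by the treatment by cell line interaction in 1 fit of 60 libraries (edgeR's quasi-likelihood F test with 9 degrees of freedom). The F statistic was 111 for PSAT1, 95.0 for ASNS, 80.3 for TRIB3, 75.1 for CHAC1, 65.8 for PHGDH, 50.4 for ATF5, 49.9 for SLC7A11, 24.2 for DDIT3 and 22.0 for ATF4. All other members thus have larger statistics than DDIT3 and ATF4. The order of F is not one of spread, since the SD of the log2 fold change over cell lines was 1.08 for PSAT1 and 1.9 for CHAC1. Since 74.5% of all genes passed the same test, a difference between cell lines is common in these data, and the etoposide concentration of each cell line cannot be told apart from the cell line.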

How the results depend on the processing

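The counts of calls over 10 cell lines stayed between 31 and 35 higher and between 8 and 11 lower under every alternative run, and with the replicate block they were 32 and 11, as without it, and no single call of a member changed. The number of members past the adjusted p alone stayed between 47 and 52 higher and between 23 and 28 lower. DDIT3 remained the only member with a mean response past the test, all 9 kept the interaction and the untreated difference, and none passed in OCIAML2. The median r of the responses was 0.76 by Spearman's rho, 0.78 without F36P, 0.78 with library size alone and 0.67 without the 2 cell lines farthest from the median, against 0.77, and the median r of untreated levels was 0.41 without F36P, against 0.33. Library size alone moved the median log2 fold change of all genes by 0.25 in F36P, 0.20 in NB4, 0.17 in KASUMI1, 0.13 in MV411 and 0.12 in MONOMAC6, so changes of the members under it are read against those shifts. Signs turned only for values that had not passed: ATF4 in F36P with library size alone (0.11) or a mean of at least 5 CPM (0.02), ATF4 in NB4 with library size alone (0.14), without untreated replicate 2 (0.04) or without etoposide replicate 1 (0.00), over a range of -0.14 to 0.04 with 1 replicate left out, ATF5 in HL60 without untreated replicate 2 (0.11, range -0.25 to 0.11), DDIT3 in MOLM13 without untreated replicate 1 (-0.01, range -0.01 to 0.36), DDIT3 in MV411 with library size alone (0.04), SLC7A11 in HL60 without untreated replicate 2 (0.05, range -0.26 to 0.05), SLC7A11 in MOLM13 without untreated replicate 3 (0.11) or etoposide replicate 2 (0.03, range -0.29 to 0.11), and the mean of PHGDH, with RLE (0.03), library size alone (0.08), a mean of at least 5 CPM (0.03) or without replicate 1 (0.03, range -0.02 to 0.03). Calls near 2-fold were gained in 8 cases and lost in 9, all in DDIT3, TRIB3, ASNS, CHAC1 and SLC7A11, and 6 of the 9 losses were CHAC1 in KASUMI1. Apart from these, the filter at a mean of 5 CPM left 2 falls untested. They were CHAC1 in MOLM13 (4.94 CPM untreated, 1.29 with etoposide) and SLC7A11 in KASUMI1 (6.28 and 2.31 CPM). CHAC1 in NB4, at a few reads per library, could not be tested at this depth in the main fit of that cell line.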
